A study of Mus musculus with 12 samples.

Results

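The angiotensin system was followed across 3 kinds of cultured mouse adipocyte and adipose tissue through the genes Agt, Ace, Enpep, Mme, Agtr1a and Agtr2. These are 6 of the 19938 genes measured, each with 1 probe set. The set was chosen by measured values, namely the log2 level of Agtr2, picked for its height in PMEF. Agtr2 is therefore described without a test, and the other 5 genes were tested in a fit across all genes. The study placed RNA from 4 groups of 3 biological replicates on Affymetrix arrays. Adipocytes had been made from the immortalised mouse preadipocyte line 3T3-L1, from embryonic fibroblasts taken directly from mice (PMEF), or from mouse ES cells, the pluripotent cells of the early embryo. Tissue from healthy wild-type mice formed the last group, eWAT, commonly read as epididymal white fat. No drug or genotype differs between the groups in the labels. The labels used here state no strain, age, passage, ES line or differentiation cocktail, and the 3T3-L1 group stands for 1 cell line. Any effect of how each culture was grown cannot be told apart from that of its cell of origin.

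Angiotensinogen, the product of Agt, is a secreted precursor that renin cuts to angiotensin I, from which Ace releases angiotensin II. Angiotensin II acts on the receptors encoded by Agtr1a and Agtr2. Enpep and Mme are membrane peptidases that trim or destroy angiotensin peptides. White adipose tissue is a known source of angiotensinogen outside the liver, and Agtr2 is best known as a receptor abundant in fetal mesenchyme that declines after birth.

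Start regions are shown for Agtr2, highest in PMEF, and for Agt, highest in 3T3-L1. They are also shown for Ace, which has an upstream and an inner start that 1 probe set cannot separate. RefSeq windows (GRCm38.p6) run from 250 bases before to 50 after the start site and were found for 5 of the 6 genes. Agtr2 lies at chrX:21484374-21484673 (plus strand), Agt at chr8:124569657-124569956 (minus strand), and Ace at chr11:105967698-105967997 and chr11:105974939-105975238 (plus strand). Capitals mark, on either strand, the TATA motif TATAAA, the related form TATATAA, the CAAT box CCAAT and the GC box GGGCGG.
Agtr2: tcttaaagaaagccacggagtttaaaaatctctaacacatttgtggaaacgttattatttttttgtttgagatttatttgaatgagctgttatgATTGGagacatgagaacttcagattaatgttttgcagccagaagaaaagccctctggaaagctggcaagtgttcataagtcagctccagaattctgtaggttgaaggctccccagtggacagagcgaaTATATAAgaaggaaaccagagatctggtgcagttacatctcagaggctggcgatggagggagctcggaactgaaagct
Agt: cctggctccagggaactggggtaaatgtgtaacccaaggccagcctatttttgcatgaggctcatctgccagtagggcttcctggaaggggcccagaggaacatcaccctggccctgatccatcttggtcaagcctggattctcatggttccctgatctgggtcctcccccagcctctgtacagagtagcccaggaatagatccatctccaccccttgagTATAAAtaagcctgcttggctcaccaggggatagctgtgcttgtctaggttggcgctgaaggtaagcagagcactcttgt
Ace, upstream start: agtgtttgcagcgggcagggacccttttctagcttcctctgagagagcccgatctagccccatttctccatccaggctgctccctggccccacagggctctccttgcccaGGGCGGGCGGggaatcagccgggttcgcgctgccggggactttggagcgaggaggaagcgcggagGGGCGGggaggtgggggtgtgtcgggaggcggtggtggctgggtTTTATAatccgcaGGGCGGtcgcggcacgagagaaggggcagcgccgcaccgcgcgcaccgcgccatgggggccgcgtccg
Ace, inner start: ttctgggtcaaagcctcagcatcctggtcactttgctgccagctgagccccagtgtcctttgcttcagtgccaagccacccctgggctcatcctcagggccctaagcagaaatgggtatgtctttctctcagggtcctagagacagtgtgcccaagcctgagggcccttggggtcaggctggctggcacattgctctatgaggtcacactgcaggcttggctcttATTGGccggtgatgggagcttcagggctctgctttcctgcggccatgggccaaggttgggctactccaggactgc

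The Agtr2 window holds TATATAA from base -28, counted back from the start site, and the Agt window holds TATAAA from base -30. TATATAA occurs in 3.24% and TATAAA in 13.6% of all 32851 windows of 300 bases. The upstream Ace window holds TATAAA on the reverse strand from base -31 and 4 matches of GGGCGG, of which the first pair overlap, against at least 1 match in 35.7% of all windows. The inner Ace window has CCAAT on the reverse strand from base -25 (37.4% of windows) and neither TATA motif. TTGCNNAA, a C/EBP-type motif present in 10.8% of windows, was searched on both strands and lay in the Enpep window but in none of those printed. AGGTCA, a nuclear receptor half-site present in 16.3% of windows, lay in the inner Ace window alone among the 8 windows of the set. Such matches describe letters and do not show binding.

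All levels are log2 intensities as the authors normalized them, so a difference of 1 is 2-fold. Levels of different probe sets are not comparable with one another. As a rough mark of background, the 95th percentile of 1015 olfactory receptor genes lay between 5.07 and 5.45 on the 12 arrays. Over all genes, arrays of the same group correlated at 0.992 to 0.997 (Pearson) and those of different groups at 0.899 to 0.965. Adipocyte markers were above the mark on all arrays for 9 of 9 genes in PMEF, ES and eWAT. In 3T3-L1 this held for 8 of 9, the exception being Lep. The adipocyte list averaged 10.3 in 3T3-L1, 10.7 to 10.8 in PMEF, 11.3 in ES and 11.8 to 11.9 in eWAT. Its median differences from eWAT were -1.11, -0.76 and -0.23 in 3T3-L1, PMEF and ES, against 0.05, 0.05 and 0.04 over all genes. In the epididymis and testis list, 7 of 9 genes were above the mark on no eWAT array. The exceptions, Prm1 and Prm2, were above it on 12 and 11 of the 12 arrays, cultures included. In bulk RNA, fewer cells of a type and less RNA per cell cannot be told apart.

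**Figure D1:**
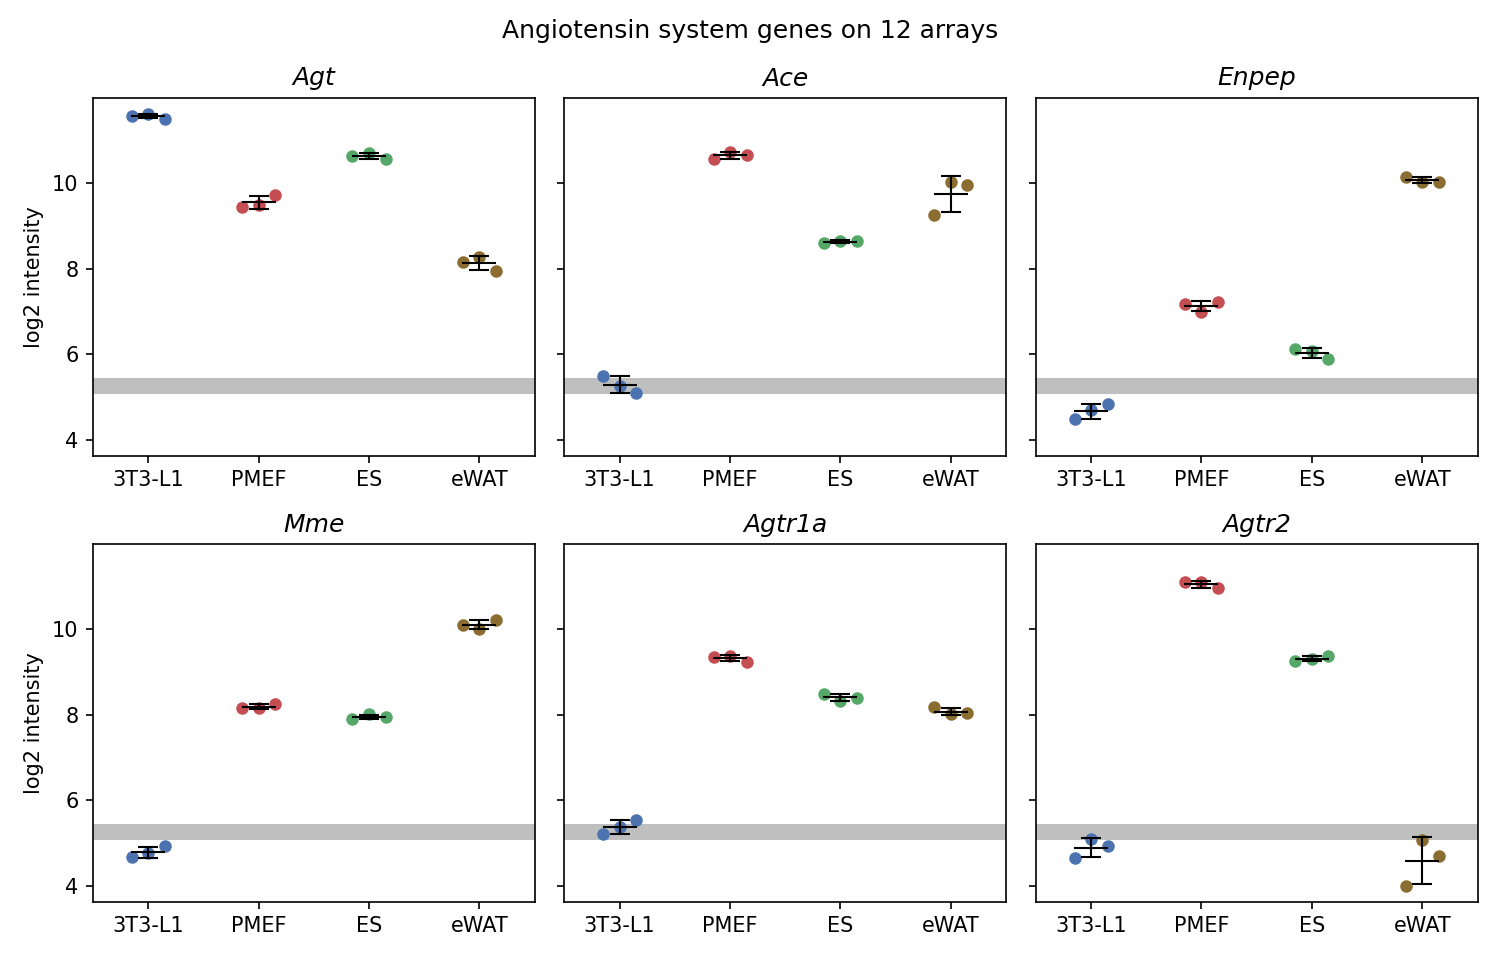
Log2 intensity (vertical axis) of the 6 genes on each array, by group, with the mean and SD over 3 arrays in black; the grey band is the range of the background mark over the 12 arrays. Agt is highest in 3T3-L1, Enpep and Mme in eWAT, and Ace, Agtr1a and Agtr2 in PMEF.

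The precursor gene was highest in the cell line and lowest in tissue. Agt (chr8:124556587-124569706) read 11.56, 11.60 and 11.50 on the 3T3-L1 arrays, 10.63, 10.71 and 10.56 in ES, 9.44, 9.48 and 9.71 in PMEF, and 8.16, 8.27 and 7.95 in eWAT. No 2 groups overlapped, and every array of every group lay well above the background mark. Agt rose in all 3 models against eWAT, by 3.43 ± 0.09 in 3T3-L1 (10.8-fold), 2.51 ± 0.09 in ES (5.68-fold) and 1.42 ± 0.09 in PMEF (2.67-fold) (moderated SE, n = 3 per group). Their limma adjusted p-values were 2.92e-12, 1.33e-10 and 2.96e-08. Among the models, Agt was lower in PMEF than in 3T3-L1 by 2.01 ± 0.09 (adjusted p = 6.8e-10). Each neighbouring pair in the order 3T3-L1, ES, PMEF, eWAT differed beyond its spread.

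Ace, the enzyme that forms angiotensin II and also inactivates bradykinin, took a different order. It was highest in PMEF and near background in 3T3-L1. Ace (chr11:105967948-105989964) read 10.56, 10.71 and 10.66 in PMEF, 9.26, 10.03 and 9.95 in eWAT, 8.60, 8.65 and 8.64 in ES, and 5.50, 5.27 and 5.10 in 3T3-L1. The groups did not overlap, although eWAT array 1 lay apart from the other 2 tissue arrays. Macrophage markers averaged 9.38 on that array and 10.1 and 10.4 on the others, and their part in the Ace level was not tested. On 3T3-L1 array 3 the value was below the mark, so changes that reach this group are rough in size. Against eWAT, Ace rose by 0.90 ± 0.16 in PMEF (limma adjusted p = 0.000464) and fell by 1.12 ± 0.16 in ES (adjusted p = 6.29e-05). In 3T3-L1 it fell by 4.46 ± 0.16, a 22-fold difference (adjusted p = 5.07e-11). Without eWAT array 1 the rise in PMEF was 0.65 (adjusted p = 0.000193) and the fall in ES was -1.36 (adjusted p = 2.67e-07). Between PMEF and 3T3-L1 the difference was 5.36 ± 0.16, or 41-fold (adjusted p = 9.7e-12).

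Endothelium is a classical site of Ace. All 10 endothelial markers fell in each of the 3 models against eWAT, with medians of -3.81, -3.52 and -3.60 in 3T3-L1, PMEF and ES. Their mean level was 5.54 to 5.61 on the PMEF arrays and 9.10 to 9.38 on the eWAT arrays, and Cdh5 was at 5.48 to 5.62 in PMEF. Of all genes, 22.5%, 21.6% and 20.9% fell in 3T3-L1, PMEF and ES against eWAT. The part of the endothelial markers in the Ace levels was not tested.

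The peptidases Enpep and Mme were both highest in tissue. Enpep encodes aminopeptidase A, which removes the first residue of angiotensin II. The gene (chr3:129269177-129332749) read 10.15, 10.03 and 10.01 in eWAT, 7.16, 6.99 and 7.22 in PMEF, 6.13, 6.07 and 5.90 in ES, and 4.48, 4.69 and 4.84 in 3T3-L1. The 3T3-L1 arrays lay below the background mark, all others above it, and no groups overlapped. Against eWAT, Enpep fell by 2.94 ± 0.10 in PMEF, 4.03 ± 0.10 in ES and 5.39 ± 0.10 in 3T3-L1 (limma adjusted p = 4.34e-11, 4e-12 and 7.54e-14). The last is a 42.1-fold difference with a 3T3-L1 level at background. PMEF and ES also differed from each other, by -1.09 ± 0.10 for ES minus PMEF (adjusted p = 1.12e-06).

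Mme encodes neprilysin, which cleaves angiotensin I, natriuretic peptides and kinins, and as CD10 marks some stromal cells. At chr3:63295211-63383713, its values were 10.11, 9.996 and 10.21 in eWAT, 8.15, 8.16 and 8.25 in PMEF, 7.91, 8.01 and 7.95 in ES, and 4.68, 4.77 and 4.93 in 3T3-L1. As with Enpep, 3T3-L1 was below the mark on 3 of 3 arrays. Mme fell against eWAT by 1.91 ± 0.08 in PMEF, 2.15 ± 0.08 in ES and 5.31 ± 0.08 in 3T3-L1 (limma adjusted p = 3.49e-10, 1.43e-10 and 2.27e-14). PMEF and ES were the closest neighbours, with ES lower by -0.24 ± 0.08 (adjusted p = 0.0318). Leaving out single arrays ended this call for PMEF array 2 (adjusted p = 0.058), PMEF array 3 (0.103), ES array 1 (0.103) and ES array 3 (0.0758).

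Smooth muscle and pericyte markers, and those of fibroblasts and progenitors, were given beside these genes because stromal cells can carry Enpep, Mme and Agtr1a. In the fibroblast and progenitor list 10 of 10 genes fell in 3T3-L1 against eWAT (median -2.64), and in PMEF 7 of 10 rose and 2 fell (median 0.64). Its mean level was 7.15 to 7.18 in 3T3-L1, 8.86 to 8.91 in ES, 9.70 to 9.91 in eWAT and 10.5 in PMEF. The smooth muscle and pericyte list averaged 6.21 to 6.25 in 3T3-L1, 7.01 to 7.11 in ES, 8.06 to 8.21 in PMEF and 8.52 to 8.67 in eWAT, with 10 of 11 genes lower and 1 higher in 3T3-L1 than in eWAT. Of all genes, 22.5% fell and 30.8% rose in 3T3-L1 against eWAT, and 24.7% rose and 21.6% fell in PMEF. The part of these stromal markers in the results for Ace, Enpep, Mme and Agtr1a was not tested.

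**Figure D2:**
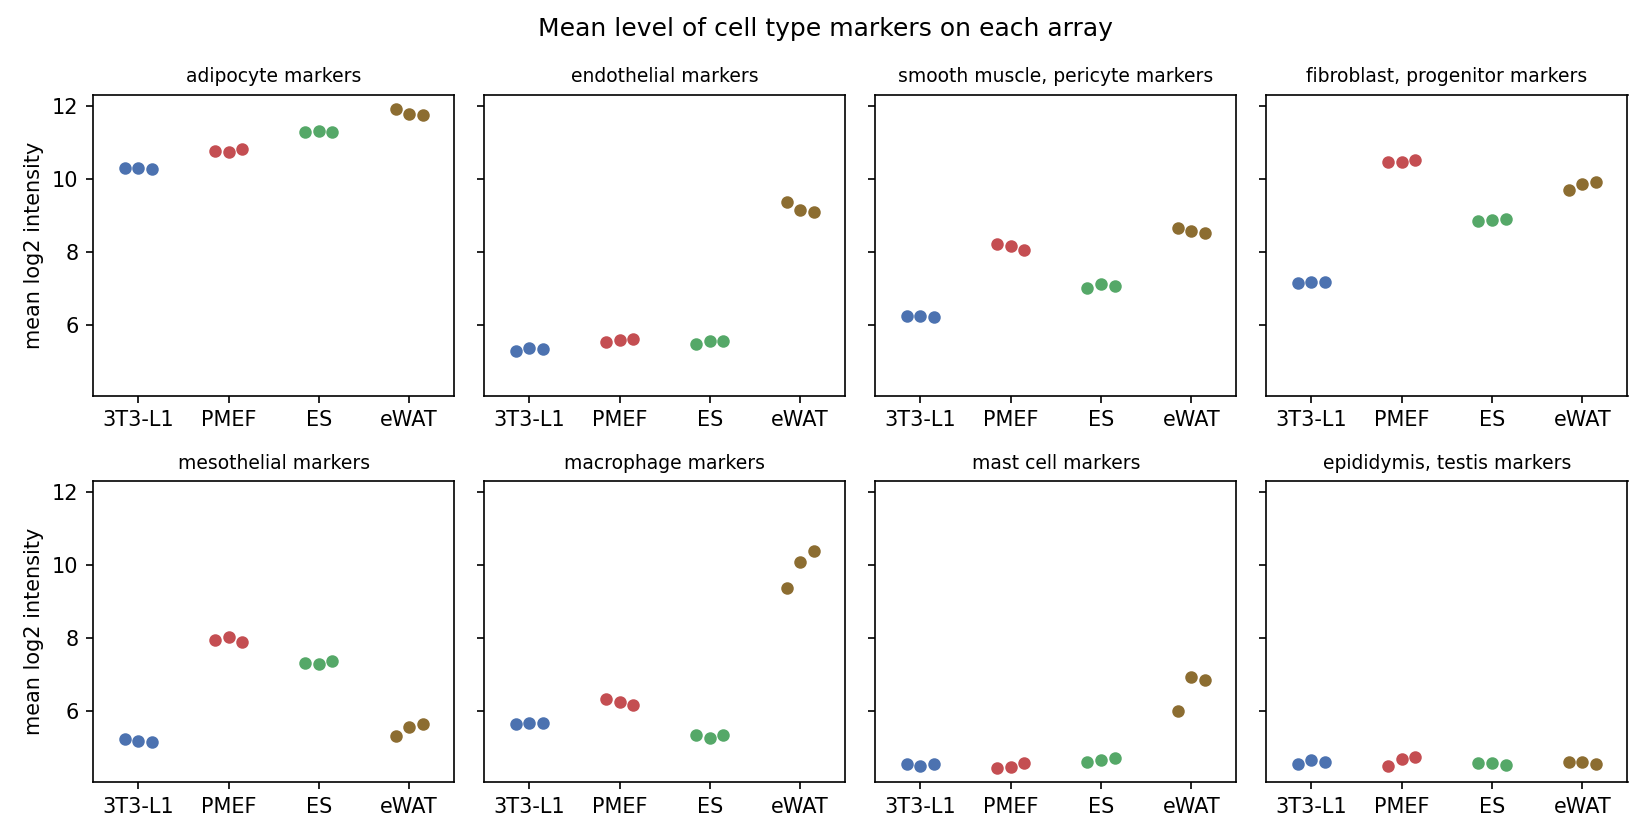
Mean log2 intensity (vertical axis) of each marker list on each array, by group. Mesothelial markers are highest in PMEF and ES, endothelial, macrophage and mast cell markers in eWAT, and epididymis and testis markers are low in all groups.

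Agtr1a, the receptor through which angiotensin II raises blood pressure, was present in PMEF, ES and eWAT and near background in 3T3-L1. The gene (chr13:30336356-30382867) read 9.35, 9.37 and 9.24 in PMEF, 8.50, 8.33 and 8.39 in ES, 8.18, 8.01 and 8.04 in eWAT, and 5.21, 5.39 and 5.54 in 3T3-L1. The order held without overlap, but ES and eWAT lay close together. Agtr1a rose by 1.24 ± 0.09 in PMEF against eWAT (limma adjusted p = 7.02e-08) and fell by 2.70 ± 0.09 in 3T3-L1 (adjusted p = 1.89e-11). ES exceeded eWAT by 0.33 ± 0.09 (adjusted p = 0.00729). With arrays centred on reference genes that difference was 0.11 and no longer passed (adjusted p = 0.294). PMEF exceeded 3T3-L1 by 3.94 ± 0.09 (adjusted p = 6.55e-13), a 15.4-fold difference whose size is rough because the 3T3-L1 arrays lay near the background mark. The paralog Agtr1b was not analysed here, so reads of its transcript by the Agtr1a probe set cannot be told apart.

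Agtr2, the second angiotensin II receptor (chrX:21484624-21488833), had the widest span in the set. On the PMEF arrays it read 11.10, 11.09 and 10.96, and on the ES arrays 9.27, 9.30 and 9.37. The 3T3-L1 arrays gave 4.65, 5.09 and 4.94 and the eWAT arrays 4.01, 5.08 and 4.69. Thus all 6 PMEF and ES arrays were far above the background mark and all 6 arrays of 3T3-L1 and eWAT were below it. PMEF and ES did not overlap each other or the low groups, whereas 3T3-L1 and eWAT did overlap.

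As a description, since these values chose the gene, the PMEF mean exceeded the eWAT mean by 6.45 (87.6-fold) and the 3T3-L1 mean by 6.16 (71.4-fold). ES exceeded eWAT by 4.72 and 3T3-L1 by 4.42, and lay below PMEF by 1.74, or 3.33-fold. The low groups lay below the background mark, so the sizes of these folds are rough. 3T3-L1 and eWAT means were 0.30 apart, a gap that eWAT array 1 set, since it was 0.0033 without that array. Without it, PMEF exceeded eWAT by 6.16.

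Markers of mesothelium, the lining over visceral fat, were also high in these cultures. In that list 7 of 7 genes rose in PMEF against eWAT (median 2.40) and 7 of 7 rose in ES (median 2.03), while in 3T3-L1 2 rose and 2 fell. Their mean level was 7.90 to 8.03 in PMEF, 7.29 to 7.36 in ES, 5.17 to 5.23 in 3T3-L1 and 5.31 to 5.66 in eWAT. Of all genes, 24.7% rose in PMEF and 28.8% in ES against eWAT, and in 3T3-L1 30.8% rose and 22.5% fell. The part of mesothelial cells in the Agtr2 level was not tested.

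**Figure D3:**
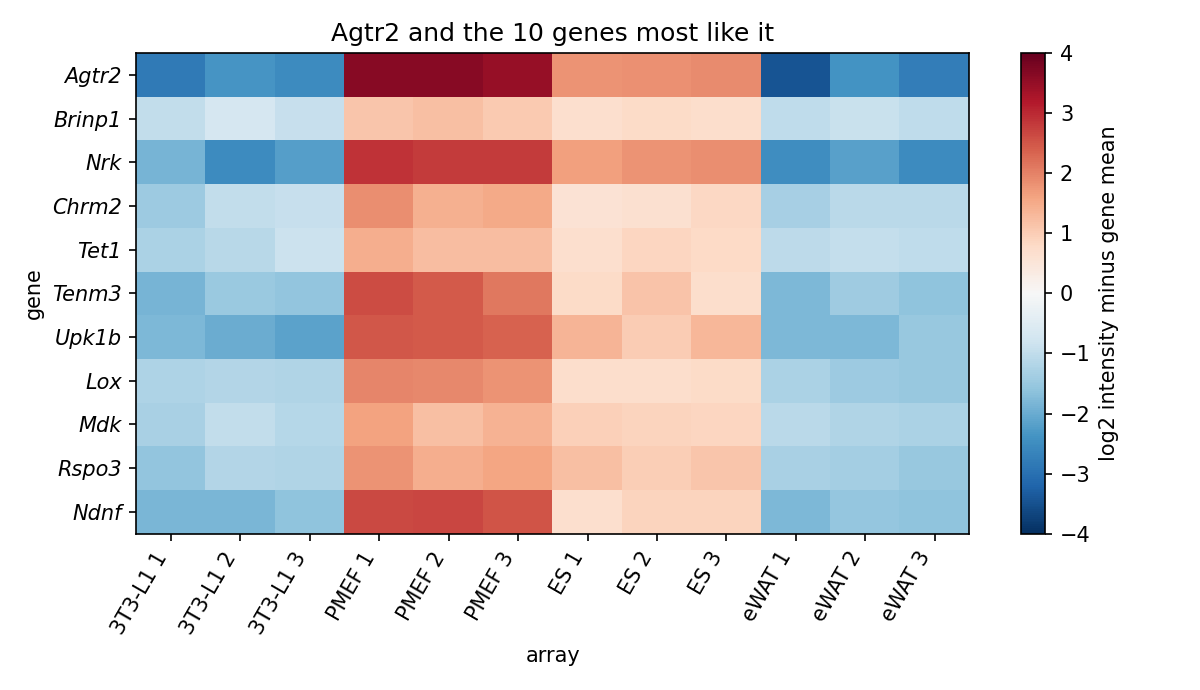
Log2 intensity minus the gene's mean over 12 arrays (colour) for Agtr2 and the 10 genes with the most similar profile, one column per array. All 11 genes are above their mean in PMEF and ES and below it in 3T3-L1 and eWAT, with the strongest colour in PMEF.

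Likeness was measured as Pearson's r of log2 values over the 12 arrays, which fall into 4 groups, among genes whose group means spanned at least 2. Of 1506 such genes, 52 reached an r of 0.95 with Agtr2. The 10 most like it had r between 0.987 and 0.995. They were Brinp1, Nrk, Chrm2, Tet1, Tenm3, Upk1b, Lox, Mdk, Rspo3 and Ndnf. Nrk, an embryonic protein kinase, averaged 9.56 in PMEF, 8.48 in ES, 4.53 in 3T3-L1 and 4.33 in eWAT. Upk1b, a uroplakin and one of the mesothelial markers, averaged 8.79, 7.60, 4.39 and 4.66 in the same groups. Lox, which cross-links collagen, ran from 12.4 in PMEF and 11.2 in ES to 9.26 in 3T3-L1 and 9.05 in eWAT. Mdk, a growth factor of embryonic tissue, and Rspo3, an enhancer of Wnt signalling, followed the same order of PMEF, ES and then the low groups.

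The other genes had different neighbours. The profile of Agt was closest to Aldh1l2, a mitochondrial folate enzyme (r = 0.996), followed by Gpcpd1, Cbr3, Slc7a11 and Pcgf6, and 44 genes reached 0.95. Slc7a11, the cystine transporter, averaged 8.47 in 3T3-L1, 7.58 in ES, 5.65 in PMEF and 4.26 in eWAT. Ace was most like the matrix proteoglycan gene Dcn (r = 0.994), then Slco2a1, Cyba, Htra3 and A4galt. Dcn, which is also in the fibroblast and progenitor list, averaged 12.7 in PMEF, 12.4 in eWAT, 11.7 in ES and 9.79 in 3T3-L1. Agtr1a was most like Plxdc2, Aebp1, Map7d3, the gap junction gene Gja1 and the imprinted adaptor gene Grb10 (r = 0.992 to 0.994). Enpep was nearest to Dnm3, Slc2a13, Stard8, the complement gene Cfb and Tmem88 (r = 0.991 to 0.994), and Mme to the neurotrophin receptor gene Ntrk2, Pon3, Pygl, St3gal6 and Pde8a (r = 0.995 to 0.997). These correlations mostly reflect the 4 group means and carry no test.

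**Figure D4:**
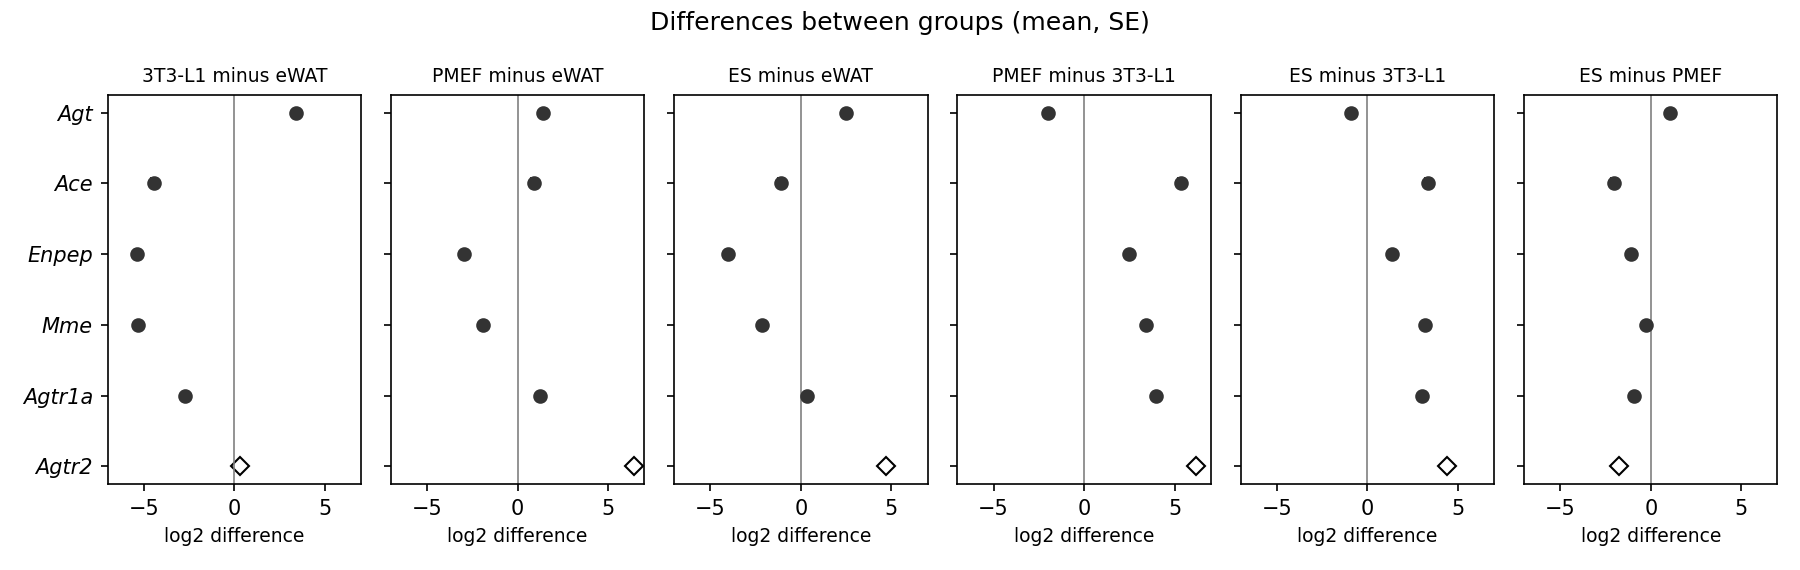
Log2 difference between group means (horizontal axis) for the 6 genes in the 6 comparisons. Filled points are tested genes with the moderated SE, mostly narrower than the point, and open diamonds are Agtr2, which was not tested. Agt lies on the other side of 0 from Ace, Enpep, Mme and Agtr1a in 4 of the 6 comparisons.

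Counted together, all 5 tested genes passed an adjusted p under 0.05 by limma in each of the 6 comparisons. Such calls were common among all 19938 genes, at 53.3% for 3T3-L1 against eWAT, 46.3% for PMEF against eWAT and 49.7% for ES against eWAT. Among the models they were 50.1% for PMEF against 3T3-L1, 43.4% for ES against 3T3-L1 and 42.6% for ES against PMEF. Against eWAT, 1 gene rose and 4 fell in 3T3-L1, 3 rose and 2 fell in PMEF, and 2 rose and 3 fell in ES. Against 3T3-L1, 4 rose and 1 fell in both PMEF and ES, and from PMEF to ES 1 was higher and 4 lower. The comparisons share groups, so these splits are not independent.

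Changes shown to exceed 2-fold (limma treat) were rarer. They held for 5 of 5 genes in 3T3-L1 against eWAT (9.17% of all genes) and in PMEF against 3T3-L1 (7.92%). In ES against 3T3-L1 4 of 5 passed, all but Agt (4.79%). Agt, Enpep and Mme passed in PMEF against eWAT (6.39%) and in ES against eWAT (5.61%). In ES against PMEF Ace alone passed (3.06%). The genes had been selected with results of these data known, so no p-value was attached to these counts.

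Other genes of the renin-angiotensin system did not share one direction. Of 24 listed, 18 were measured, and the rest, among them Ren1, Ren2 and Agtr1b, were not analysed here. Against eWAT, 6 rose and 9 fell in 3T3-L1 (median -0.13, against 0.05 over all genes), 4 rose and 7 fell in PMEF (median 0.13, against 0.05), and 3 rose and 9 fell in ES (median -0.27, against 0.04). Other scalings shifted the median of all genes by -0.35 to 0.21 in these comparisons, so the sign of such small medians is not settled. Of all genes, 30.8% rose and 22.5% fell in 3T3-L1, 24.7% and 21.6% in PMEF, and 28.8% and 20.9% in ES. The largest falls were the same 2 mast cell genes in each model. Cpa3, a carboxypeptidase, was at 7.72, 9.39 and 9.17 in eWAT and below the background mark on all 9 culture arrays, with differences of -5.09 ± 0.30, -4.98 ± 0.30 and -5.00 ± 0.30 in 3T3-L1, PMEF and ES (limma adjusted p = 6.75e-09, 1.27e-08 and 1.46e-08). Mcpt4, a chymase of a class that can form angiotensin II, was at -4.41 ± 0.26, -4.42 ± 0.26 and -4.50 ± 0.26 (adjusted p = 5.62e-09, 8.48e-09 and 8.42e-09). Both genes also stand in the mast cell marker list, in which 7 of 8 genes fell in every model. Mast cell markers averaged 6.0045 to 6.93 in eWAT and 4.44 to 4.71 in the cultures, and 6 of 8 were above the mark on no culture array.

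**Figure D5:**
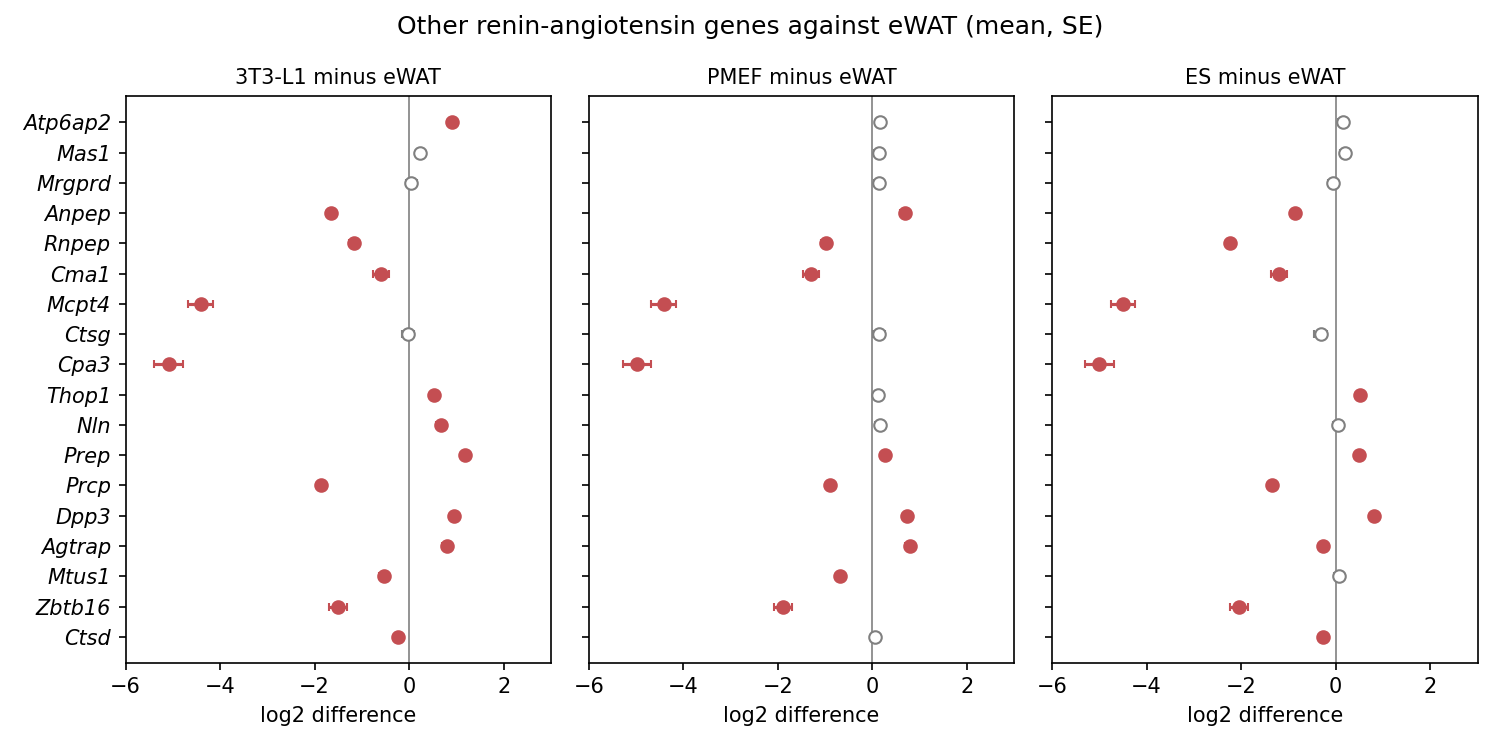
Log2 difference from eWAT (horizontal axis, moderated SE) of the 18 other renin-angiotensin genes in each model. Filled points passed an adjusted p under 0.05 and open points did not; Cpa3 and Mcpt4 lie far to the left in all 3 panels.

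Among enzymes and receptor partners expressed in the cultures, differences were smaller. Prcp, which cleaves angiotensin II, fell in each model against eWAT, and in 3T3-L1 it fell by 1.86 ± 0.09 (limma adjusted p = 5.5e-10). Rnpep (aminopeptidase B) also fell in each, and in ES it fell by 2.23 ± 0.10 (adjusted p = 5.51e-10). Zbtb16, a transcription factor reported to bind the Agtr2 protein, likewise fell in all 3 models, and in PMEF it fell by 1.89 ± 0.19 (adjusted p = 1.81e-06). Anpep, aminopeptidase N, which shortens angiotensin III, followed the order of Ace, with means of 9.76 in PMEF, 9.08 in eWAT, 8.21 in ES and 7.43 in 3T3-L1. It was 2.33 ± 0.09 higher in PMEF than in 3T3-L1 (limma adjusted p = 9.42e-11), and ES minus PMEF was -1.54 ± 0.09 (adjusted p = 1.64e-08). Other genes of the list rose. Dpp3, a peptidase that degrades angiotensin II, rose in all 3 models against eWAT, by 0.95 ± 0.09, 0.74 ± 0.09 and 0.80 ± 0.09 in 3T3-L1, PMEF and ES (limma adjusted p = 5.5e-07, 9.5e-06 and 4.09e-06). Prep, which can cut angiotensin I, also rose in all 3, by 1.17 ± 0.07, 0.26 ± 0.07 and 0.49 ± 0.07 (adjusted p = 9.79e-09, 0.0104 and 6.56e-05). Between PMEF and 3T3-L1, Prep was at -0.92 and Prcp at 0.97. Rnpep was lower in ES than in 3T3-L1 and PMEF, at -1.06 and -1.24, and Anpep was 0.79 higher in ES than in 3T3-L1. The prorenin receptor gene Atp6ap2 rose in 3T3-L1 against eWAT by 0.91 ± 0.10 (adjusted p = 2.61e-06) and was at 0.17 and 0.15 in PMEF and ES (adjusted p = 0.182 and 0.231). Agtrap, a partner that promotes internalization of the angiotensin II type I receptor, rose in 3T3-L1 and PMEF against eWAT, by 0.79 ± 0.09 in each (adjusted p = 5.35e-06 and 8.85e-06). It was at -0.27 ± 0.09 in ES against eWAT (adjusted p = 0.0261) and at -1.06 ± 0.09 in ES against both 3T3-L1 and PMEF (adjusted p = 5.52e-07 and 7.12e-07). Mas1, a receptor for a shortened angiotensin, was below the background mark on 12 of 12 arrays, and its differences from eWAT were 0.24, 0.13 and 0.20 in 3T3-L1, PMEF and ES (adjusted p = 0.0625, 0.3 and 0.122). Mrgprd, another receptor of shortened angiotensins, was likewise below the mark on 12 of 12 arrays, at 0.05, 0.14 and -0.06 (adjusted p = 0.752, 0.299 and 0.662).

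Among 6 genes of the neprilysin family, 2 rose and 1 fell in 3T3-L1 against eWAT. In both PMEF and ES 3 rose and 1 fell. Over all genes 30.8% rose and 22.5% fell in 3T3-L1, 24.7% and 21.6% in PMEF, and 28.8% and 20.9% in ES. Single arrays moved the rises. In 3T3-L1 1 rose without 3T3-L1 array 2 or 3, or eWAT array 1 or 3. In PMEF 2 rose without PMEF array 2 or 3, or eWAT array 1 or 2, and 4 without PMEF or ES array 1. In ES 2 rose without any single ES or eWAT array, 3T3-L1 array 1, or PMEF array 2 or 3. Ece1, an endothelin-converting enzyme, fell against eWAT in 3T3-L1, PMEF and ES, by 1.45 ± 0.08, 0.44 ± 0.08 and 1.65 ± 0.08 (limma adjusted p = 2.1e-09, 0.000312 and 1.17e-09). Its relative Ece2 rose instead, by 2.07 ± 0.10, 0.52 ± 0.10 and 0.58 ± 0.10 in the same order of models (adjusted p = 5.58e-10, 0.000542 and 0.000189). Ece2 was also lower in PMEF and in ES than in 3T3-L1, at -1.55 and -1.49. It has 2 probe sets, of which the values given are those of the brighter. Ece1 was 1.01 higher in PMEF than in 3T3-L1 and at -1.20 in ES minus PMEF. Ecel1, an endopeptidase of neurons, rose in ES against eWAT by 0.78 ± 0.09 (adjusted p = 6.07e-06) and was 0.60 higher in ES than in 3T3-L1 and 0.54 higher than in PMEF. Phex, known for its part in phosphate balance, passed in PMEF and 3T3-L1 against eWAT at 0.58 ± 0.12 and 0.33 ± 0.12 (adjusted p = 0.00123 and 0.0338), but lay below the background mark on 12 of 12 arrays. In ES it was at -0.34 against 3T3-L1 and -0.59 against PMEF (adjusted p = 0.0372 and 0.00123).

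In the kinin and natriuretic peptide list, whose peptides Ace or Mme can cut, 12 of 14 genes were measured. Against eWAT, 1 rose and 3 fell in 3T3-L1, 5 rose and 3 fell in PMEF, and 2 rose and 4 fell in ES. Scaling moved these counts: in 3T3-L1 up to 11 fell on reference genes and up to 5 rose on medians, and on reference genes 3 rose in PMEF and 1 in ES. As deposited, 30.8% of all genes rose and 22.5% fell in 3T3-L1, 24.7% and 21.6% in PMEF, and 28.8% and 20.9% in ES. The guanylyl cyclase receptor Npr1 fell in every model, with differences of -2.80 ± 0.09, -2.84 ± 0.09 and -2.60 ± 0.09. Their limma adjusted p-values were 1.18e-11, 2.04e-11 and 5.78e-11. On the culture arrays Npr1 read 5.68 to 6.11, close above the background mark, so these sizes are rough. The clearance receptor Npr3 averaged 10.1 in eWAT, 9.30 in PMEF, 8.63 in ES and 7.36 in 3T3-L1, the same order as Enpep and Mme, and fell by 0.77 ± 0.13, 1.44 ± 0.13 and 2.71 ± 0.13 (adjusted p = 0.000193, 5.27e-07 and 5.58e-10). Npr3 was 1.94 higher in PMEF and 1.27 higher in ES than in 3T3-L1 (adjusted p = 1.85e-08 and 2.03e-06). The related receptor Npr2 fell in 3T3-L1 and ES against eWAT, at -0.82 ± 0.10 and -0.65 ± 0.10, and rose in PMEF by 0.28 ± 0.10 (adjusted p = 7.25e-06, 7.89e-05 and 0.032), and ES minus PMEF was -0.93. Cpm, a membrane carboxypeptidase that trims kinins, changed sign between models. It rose in 3T3-L1 against eWAT by 1.92 ± 0.16 and fell in PMEF and ES, at -1.41 ± 0.16 and -0.95 ± 0.16 (limma adjusted p = 2.15e-07, 7.21e-06 and 0.000227). PMEF and ES were lower than 3T3-L1, at -3.33 and -2.87 (limma adjusted p = 9.7e-10 and 7.77e-09). The PMEF values of Cpm, 4.46, 4.47 and 4.50, lay below the background mark. Of the ES values, 4.78, 5.12 and 4.89, only that of array 2 was above it, so the sizes of these differences are rough. The kininogen genes Kng1 and Kng2, which encode the kinin precursors, rose in PMEF against eWAT by 0.75 ± 0.11 and 0.84 ± 0.15 (adjusted p = 6.7e-05 and 0.000293). Kng1 was below the background mark on all 12 arrays, and Kng2 was above it on 5. Kng2 was 1.10 higher in PMEF than in 3T3-L1, and ES minus PMEF was -0.78 for Kng1 and -0.68 for Kng2. The bradykinin receptor Bdkrb1 rose in PMEF and ES by 0.36 ± 0.08 and 0.48 ± 0.08 (adjusted p = 0.0025 and 0.000276) and was at 0.01 ± 0.08 in 3T3-L1 (adjusted p = 0.915), and it was 0.46 higher in ES than in 3T3-L1 (adjusted p = 0.000397). Bdkrb1 read 5.65 to 6.24 over the 12 arrays, close above the background mark, so the sizes of its rises are rough. Bdkrb2 passed in no comparison with eWAT, at -0.04, 0.13 and 0.13 in 3T3-L1, PMEF and ES (limma adjusted p = 0.771, 0.329 and 0.354).

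Genes of mineralocorticoid and glucocorticoid synthesis and action were also compared. Of 7 listed and measured, 4 fell in 3T3-L1 against eWAT, 2 fell and 1 rose in PMEF, and 3 fell in ES. Over all genes 22.5%, 21.6% and 20.9% fell in these comparisons, and 30.8%, 24.7% and 28.8% rose. The mineralocorticoid receptor gene Nr3c2 averaged 6.66 in eWAT and fell in 3T3-L1, PMEF and ES, with differences of -0.85 ± 0.10, -1.06 ± 0.10 and -0.65 ± 0.10 (limma adjusted p = 7.43e-06, 1.34e-06 and 0.000121). Hsd11b1, which regenerates active glucocorticoid in fat, averaged 10.8 in eWAT, 9.97 in 3T3-L1, 7.17 in ES and 5.85 in PMEF. It fell by 4.97 ± 0.08 in PMEF, 3.64 ± 0.08 in ES and 0.85 ± 0.08 in 3T3-L1 (adjusted p = 6.69e-14, 1.4e-12 and 6.73e-07). Between models Hsd11b1 was at -4.12 in PMEF and -2.79 in ES against 3T3-L1, and at 1.33 in ES against PMEF. The PMEF values of Hsd11b1, 5.75 to 5.93, and of Nr3c2, 5.49 to 5.68, lay close above the background mark. Differences of both genes that reach PMEF are therefore rough in size. Nr3c1, the glucocorticoid receptor gene, fell in 3T3-L1 against eWAT by 0.81 ± 0.08 (limma adjusted p = 6.91e-07) and was at -0.01 and -0.05 in PMEF and ES (adjusted p = 0.942 and 0.622). PMEF and ES exceeded 3T3-L1 in Nr3c1 by 0.80 and 0.75. Hsd11b2, which inactivates glucocorticoid, rose in PMEF against eWAT by 0.40 ± 0.10 (limma adjusted p = 0.00426). It fell against eWAT in 3T3-L1 and ES, at -0.62 ± 0.10 and -0.36 ± 0.10 (adjusted p = 9.9e-05 and 0.00697). Its differences were 1.01 for PMEF minus 3T3-L1 and -0.76 for ES minus PMEF, and Nr3c2 was 0.41 higher in ES than in PMEF. Cyp21a1, a steroid hydroxylase gene, was at -0.40 in ES minus 3T3-L1 (limma adjusted p = 0.0231), but lay below the background mark on 12 of 12 arrays. For Hsd11b1 among the models the order, 3T3-L1 then ES then PMEF, was that of Agt, whereas the 2 genes lay at opposite ends in eWAT.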

How the data were processed

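Per the labels, TRIzol extraction was followed by labelling of single-stranded cDNA from 300 ng RNA (Ambion kit, Affymetrix arrays), and groups are biological triplicates. The deposited values are log2 intensities of 35556 probe sets on 12 arrays, normalized by the authors. No label or header states their software or method, and the log scale was read from the range, 1.11 to 13.5. Only the 21789 probe sets with 1 gene symbol were kept, against 1621 with several and 12146 with none, and 21698 of them matched RefSeq by Entrez ID. The brightest probe set stood for each of 19938 genes. A limma 3.58.1 fit (R 4.3.3) of the 4 groups had 8 residual and 4.88 prior degrees of freedom, was tested on simulated data, and used Benjamini-Hochberg adjustment over all genes at 0.05. Precision is limited by having 3 arrays a group. The members and gene lists were chosen with earlier results of these data known. Gene names follow a rule that gives values for the members, the 3 called genes with the largest difference per list and comparison, listed receptors whatever their result, up to 3 markers per list, and the genes most like each member. Which of the latter were given with group means was chosen after their values were seen. Alternatives covered scaling, filtering, the variance model, a 2-fold threshold, a replicate block and leaving out each array.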

Additional observations from a re-analysis of the deposited data

How the results depend on the processing

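The 30 comparisons of the 5 tested genes were refitted under 21 alternatives, which gave 630 values. None reversed, 616 kept their call and 14 lost it. Of these 14, 9 came from limma treat, which asks for more than 2-fold and so by construction passes fewer, 1 from centring on reference genes (Agtr1a, ES against eWAT) and 4 from single arrays left out (Mme, ES against PMEF). With treat, 3 of 5 genes passed in PMEF against eWAT, 3 in ES against eWAT and 1 in ES against PMEF, and over all genes 1828, 1274, 1118, 1579, 955 and 610 passed, against 10628, 9225, 9911, 9985, 8651 and 8501, in the order of comparisons 3T3-L1, PMEF and ES against eWAT, PMEF and ES against 3T3-L1, and ES against PMEF. Same-numbered arrays of different groups did not deviate together (median r = -0.0075 over 18 pairs). That gives no sign of pairing by number, but it cannot exclude that same-numbered samples were handled together. The replicate block changed no call of the 5 genes (Ace, PMEF minus eWAT, limma adjusted p = 0.000826, value 0.90). Agtr2 in PMEF minus eWAT ran from 6.16 to 6.70 with single arrays left out. Centring on reference genes moved the median of all genes by -0.35 in 3T3-L1 against eWAT, -0.12 in PMEF and -0.22 in ES. Centring on medians moved it by 0.21 in 3T3-L1 against eWAT, where 57.8% of called genes were higher as deposited, 77.1% on medians and 21.5% on reference genes. Counts in short lists depended on scaling. Genes of the kinin and natriuretic list that fell in 3T3-L1 against eWAT numbered 3 and reached 11 on reference genes, those that rose numbered 1 and reached 5 on medians, and neprilysin relatives that rose numbered 2, with 1 to 4 over the alternatives other than treat. Other renin-angiotensin genes against eWAT ran from 5 to 8 rising and 6 to 11 falling in 3T3-L1, 3 to 4 and 4 to 7 in PMEF, and 3 to 4 and 6 to 10 in ES. Levels near the background mark limit the size of the 3T3-L1 differences in Ace, Enpep, Mme and Agtr1a.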
